A study of Homo sapiens with 6 samples.

Results

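Transcripts of 10 genes that serve mitosis or the supply of thymidylate for S phase were followed in SKBR3 cells, through 11 of the 47231 probes of an Illumina bead array. SKBR3 is an established cell line from a human breast cancer, in which the gene of the receptor tyrosine kinase HER2 (ERBB2) is amplified. The members were chosen by probe ID: CDK1, CCNA2, CCNB2, AURKA, CDC20, UBE2C, TOP2A, TYMS and TK1 with 1 probe each and BIRC5 with 2. Earlier results of these data were known when they were chosen. The pairing of these probes with genes was given with the member list and was not checked against a platform annotation here. Per the titles and the sample labels, 3 arrays carried RNA of SKBR3 control cells named for GFP, a fluorescent protein, and 3 carried RNA of SKBR3 cells overexpressing CDCP1, a transmembrane glycoprotein that SRC family kinases phosphorylate. Both groups were grown in vitro. The labels used here name no vector, promoter, clone, drug or time point. Nothing says whether the numbered experiments of a group were separate cultures, so the spread behind the p-values is that between these samples and may be technical. The study is about CDCP1 and HER2 in tumorigenesis and in resistance to trastuzumab, an antibody to HER2, and the comparison addresses which transcripts differ between cells overexpressing CDCP1 and the control.

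Values are log2 probe signals that the authors had already normalized between arrays, so a difference of 1 is a doubling if the scale is log2, as its range shows. Of the 47231 probes, 31456 lay above an estimated background of 6.68 on at least 3 of the 6 arrays and were tested. Each array had 65.3% of its probes above that limit. All 11 member probes were above it on all 6 arrays. Over the whole table CDCP1 replicate 1 received the lowest array weight in limma, 0.381, a measure of how far an array lies from its group, against 0.926 to 1.51 for the other 5 arrays. The CDCP1 transcript itself and the markers of the SKBR3 line were not analysed here, since their probes were not identified, and the overexpression label was thus not checked.

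The cell cycle is driven by cyclin-dependent kinases whose cyclins are made and destroyed in turn. Cyclin A2 (CCNA2) acts in S phase and G2, and CDK1 with B-type cyclins such as CCNB2 drives entry into mitosis. Aurora kinase A (AURKA) matures the centrosomes and builds the spindle. In mitosis, CDC20 activates the anaphase-promoting complex, for which UBE2C is the ubiquitin-conjugating enzyme, and cyclins A and B are degraded. Survivin (BIRC5) belongs to the chromosomal passenger complex, and topoisomerase II alpha (TOP2A) untangles sister chromatids. Thymidylate synthase (TYMS) makes thymidylate from deoxyuridylate, and thymidine kinase (TK1) recovers it from thymidine. Most of these transcripts rise and fall with the cycle, which is why they serve as proliferation markers in breast tumours, where TOP2A also lies near ERBB2 on the same chromosome arm.

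Many genes of this kind share promoter elements, and the RefSeq windows (GRCh38.p14) of 5 members are shown because 3 of them (CCNA2, TOP2A and TYMS) passed the test and 2 (CCNB2 and CDC20) did not. Each run is the 250 bases before the annotated start, 5′ to 3′ on the strand of the gene. Capitals mark matches, on either strand, to the CCAAT box (CCAAT), to the cell cycle genes homology region (CHR, searched as TTTGAA, its variant TTCGAA, the spelling CTTGAA described for cyclin A, and also TTTAAA) and to the E2F site (searched as TTGGCGC, as well as TTGCCGC, then TTCGCGC, and finally TTCCCGC).
CCNA2, chr4:121823884-121824133, minus strand: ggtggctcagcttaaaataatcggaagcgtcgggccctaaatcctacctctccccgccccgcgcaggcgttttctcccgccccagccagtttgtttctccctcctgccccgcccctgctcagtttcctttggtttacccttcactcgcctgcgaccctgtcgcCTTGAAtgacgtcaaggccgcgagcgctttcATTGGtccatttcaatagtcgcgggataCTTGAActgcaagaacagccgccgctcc
TOP2A, chr17:40417897-40418146, minus strand: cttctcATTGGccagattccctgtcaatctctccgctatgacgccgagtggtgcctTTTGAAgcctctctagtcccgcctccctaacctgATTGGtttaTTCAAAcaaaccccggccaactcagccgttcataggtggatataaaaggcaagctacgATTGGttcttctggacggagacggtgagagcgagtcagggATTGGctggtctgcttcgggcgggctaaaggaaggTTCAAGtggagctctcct
TYMS, chr18:657403-657652, plus strand: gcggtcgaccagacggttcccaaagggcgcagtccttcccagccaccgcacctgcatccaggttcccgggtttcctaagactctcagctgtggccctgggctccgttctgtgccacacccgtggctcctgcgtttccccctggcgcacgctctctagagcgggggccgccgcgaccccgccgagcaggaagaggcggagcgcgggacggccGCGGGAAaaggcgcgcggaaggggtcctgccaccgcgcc
CCNB2, chr15:59104896-59105145, plus strand: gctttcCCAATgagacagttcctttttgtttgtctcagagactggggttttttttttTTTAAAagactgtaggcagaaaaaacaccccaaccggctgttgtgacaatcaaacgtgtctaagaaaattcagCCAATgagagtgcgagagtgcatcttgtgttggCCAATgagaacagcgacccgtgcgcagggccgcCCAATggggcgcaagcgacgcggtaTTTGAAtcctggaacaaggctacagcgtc
CDC20, chr1:43358731-43358980, plus strand: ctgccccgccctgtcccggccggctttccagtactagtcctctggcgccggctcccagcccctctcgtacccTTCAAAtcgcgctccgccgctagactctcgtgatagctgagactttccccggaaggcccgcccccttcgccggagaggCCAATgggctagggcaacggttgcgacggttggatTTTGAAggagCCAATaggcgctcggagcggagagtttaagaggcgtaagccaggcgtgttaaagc

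In these windows, CCNA2 held 1 CCAAT box, 52 to 56 bases before the start, and CHR spellings at 23 to 28 and 82 to 87 bases before it. TOP2A and CCNB2 each held 4 CCAAT boxes, the nearest at 49 to 53 and 50 to 54 bases, and CDC20 held 2. TYMS held neither of these elements and had 1 E2F match at 33 to 39 bases. No match to one of the searched spellings says only that those letters were not in the window. Windows were found for 7 of the 10 genes (9 windows, since CDK1 and TK1 have 2 starts each), and not for AURKA, BIRC5 and UBE2C. A CCAAT box was in a window of 6 of the 7 genes, against 32.0% of all 35116 windows, a CHR spelling in 6 of 7 against 29.1%, and an E2F match in 3 of 7 against 10.9%. A gene counted if any of its windows matched, while the shares are per window, so the measures are not alike. TK1 counted for the CCAAT box and the E2F site through only 1 of its 2 windows. These shares are a description of the letters. CCNA2 and TOP2A, which were called higher, and CCNB2 and CDC20, which were not called, all carried CCAAT and CHR spellings. TYMS, also called higher, carried neither. Whether these spellings bear on the calls was not tested.

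Of the 11 member probes, 5 were higher in the CDCP1 cells (adjusted p under 0.05, limma with Benjamini-Hochberg adjustment over 31456 probes) and 0 were lower, where 2.62% of all tested probes were called higher and 2.64% lower (5.26% in all). At an unadjusted p under 0.05 in limma, 8 members were higher and 0 lower, against 8.49% and 8.62% of all tested probes. Since the members were chosen with earlier results of these data known, such counts beside table shares, here and below, carry no test. The 5 probes belong to 4 genes: CCNA2, BIRC5 (both probes), TYMS and TOP2A. The other 6 genes (TK1, CDK1, CDC20, UBE2C, CCNB2 and AURKA) were not called. All 11 fitted log2 changes lay above 0, between 0.12 and 0.65 with a median of 0.26, whereas the median over all tested probes was -0.0041 and 48.3% of them lay above 0. Most of these transcripts vary with the cycle and BIRC5 counts with both probes, so the 11 changes are not independent of each other. In these bulk samples, a larger share of cells in one phase of the cycle and more transcript per cell cannot be told apart. The members are bright: with the tested probes divided by mean signal into 3 bands of nearly equal size, 10 of the 11 fell in the brightest band, where 5.94% were called higher. The exception was BIRC5 through ILMN_1803124.

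**Figure D1:**
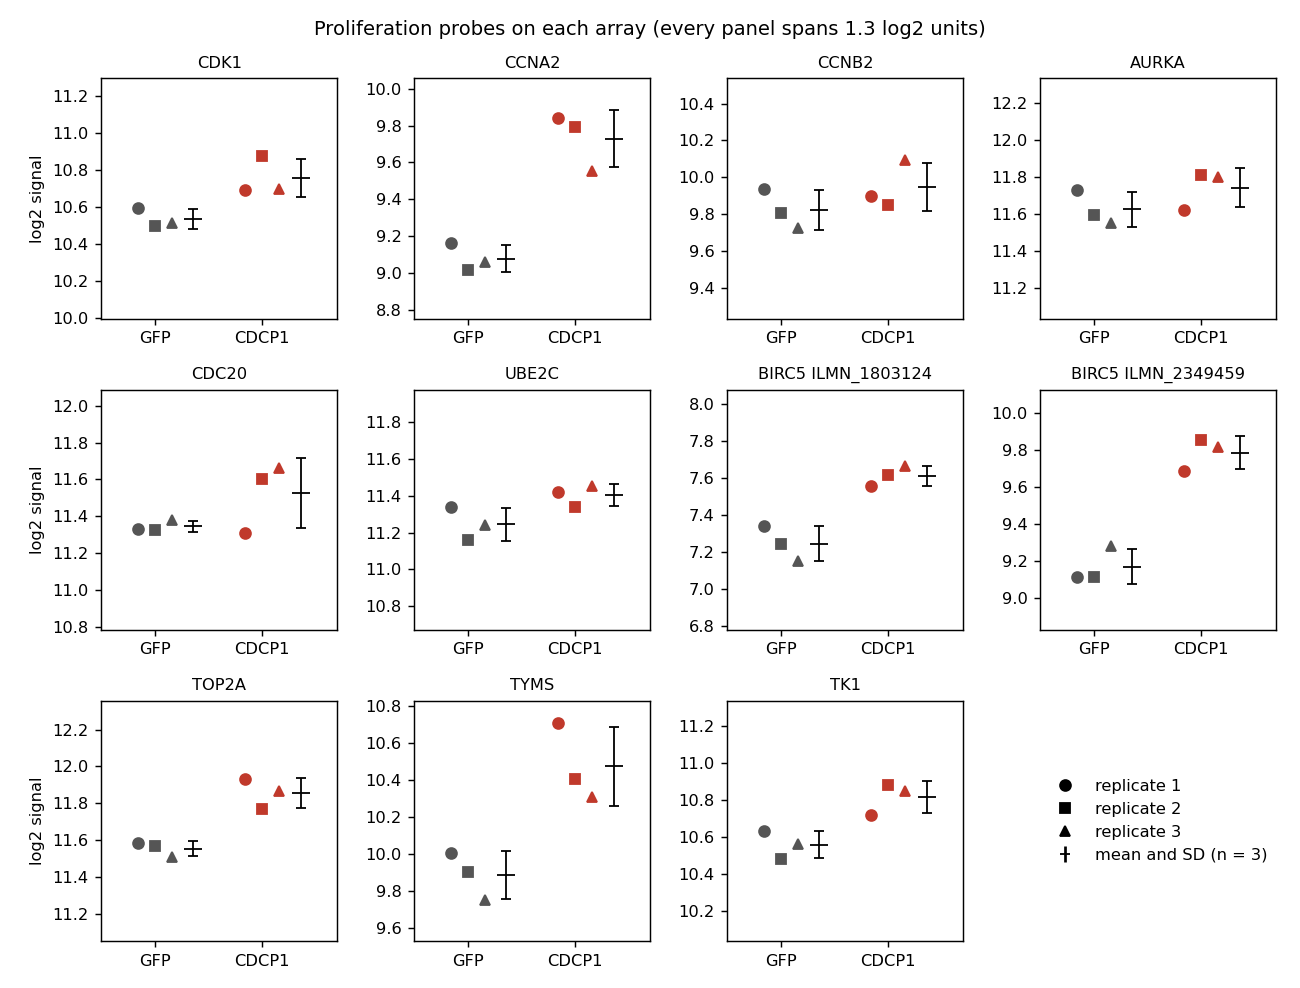
Log2 signal of each of the 11 probes on the 3 GFP and 3 CDCP1 arrays, with 1 panel per probe, a marker shape per replicate, and a bar for the mean and SD of each group (n = 3). CCNA2, both BIRC5 probes, TYMS and TOP2A show CDCP1 arrays well clear of the GFP arrays, while CCNB2, AURKA, CDC20 and UBE2C overlap between groups.

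CCNA2 (ILMN_1786125), the cyclin of S phase and G2, had the largest fitted change of the 11 probes. Its log2 signal was 9.16, 9.02 and 9.06 on the GFP arrays 1 to 3, and 9.84, 9.79 and 9.55 on the CDCP1 arrays 1 to 3. All CDCP1 values lay above all GFP values, with a gap of 0.39 between the nearest ones, and CDCP1 replicate 3 was the lowest of its group. The group means were 9.08 ± 0.074 and 9.73 ± 0.15 (SD, n = 3 each). It rose by 0.65 log2 units (SE 0.082, 95% interval 0.47 to 0.83, adjusted p by limma = 0.0016), which is 1.57-fold higher, and 0.232% of all tested probes had a larger increase. It stayed past the threshold with any 1 array left out, with log2 changes of 0.59 to 0.74.

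CDK1 (ILMN_1747911), the kinase that cyclin A2 and the B-type cyclins bind at mitosis, was not called. Its log2 signal was 10.60, 10.50 and 10.51 on the GFP arrays and 10.69, 10.88 and 10.70 on the CDCP1 arrays. The groups did not overlap, but the gap between them was 0.099, near the SD of the CDCP1 arrays (0.10). The fitted change was 0.22 (SE 0.070, 95% interval 0.067 to 0.38, adjusted p by limma = 0.107), a ratio of 1.17. With array weights in limma the call was gained, at a log2 change of 0.26 and adjusted p = 0.030. That setting also raised the calls over all tested probes from 1656 to 2613.

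The B-type cyclin CCNB2 (ILMN_1801939) had log2 signals of 9.94, 9.81 and 9.73 in the control and 9.90, 9.85 and 10.09 in the CDCP1 cells. The groups overlapped: GFP replicate 1 lay above CDCP1 replicates 1 and 2. The fitted change of 0.13 had an interval from -0.054 to 0.31 (limma adjusted p = 0.519), which leaves room for up to 1.24-fold. It was 0.052 without CDCP1 replicate 3 and 0.077 without GFP replicate 3, and not called in either case. AURKA (ILMN_1680955), the centrosome kinase, had 11.73, 11.59 and 11.55 in the control and 11.62, 11.81 and 11.80 in the CDCP1 cells. CDCP1 replicate 1 lay between the controls and the other CDCP1 arrays were higher than all of them. Its change was 0.12 (95% interval -0.048 to 0.28, limma adjusted p = 0.510), and 0.18 without CDCP1 replicate 1 (adjusted p = 0.179).

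The changes of the cyclins and CDK1 were compared within each array, as the change of the log2 ratio of a pair of probes. The log2 ratio of CCNA2 to CDK1, set to a mean of 0 in the control, was 0.60, 0.37 and 0.31 on the CDCP1 arrays and between -0.022 and 0.022 on the GFP arrays. It was thus higher on every CDCP1 array, by 0.43 (95% interval 0.18 to 0.67 from the pooled within-group SD). The ratio of CCNA2 to CCNB2 was higher by 0.52 (95% interval 0.065 to 0.98), with groups that did not overlap, although CDCP1 replicate 3 reached 0.20 where the other CDCP1 arrays stood at 0.68. The SDs of the CCNA2 ratios to CDK1 and CCNB2 were 0.15 and 0.28 on the CDCP1 arrays. On the GFP arrays they were 0.022 and 0.066. The pooled intervals assume equal spread and are thus not firm. The ratio of CCNB2 to CDK1 changed by -0.096 (95% interval -0.45 to 0.26), and its groups overlapped. Over the 6 pairs of probes compared here and in the following paragraphs, which were chosen after their values had been seen, the two-sided exact permutation p was 0.1 for both CCNA2 ratios, or 0.15 after Benjamini-Hochberg adjustment, and 0.6 for CCNB2 to CDK1 (adjusted 0.72). With 3 arrays against 3, 0.1 is the smallest p this test can give.

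CDC20 (ILMN_1663390) and UBE2C (ILMN_2301083), which work together at the anaphase-promoting complex, were not called. CDC20 stood at 11.33, 11.33 and 11.38 on the GFP arrays and at 11.31, 11.60 and 11.66 on the CDCP1 arrays. CDCP1 replicate 1 was the lowest of all 6 arrays, and CDCP1 replicates 2 and 3 were above every control. The fitted change was 0.18 (95% interval -0.014 to 0.37, limma adjusted p = 0.342). Without CDCP1 replicate 1 it was 0.29, and CDC20 was then called (limma adjusted p = 0.018). That fit called 2132 of all tested probes, against 1656 with all 6 arrays. Without CDCP1 replicate 2 or 3 the change of CDC20 was 0.14 or 0.11 (limma adjusted p = 0.604 and 0.595). UBE2C stood at 11.34, 11.16 and 11.24 on the GFP arrays and at 11.42, 11.34 and 11.45 on the CDCP1 arrays. Its groups overlapped slightly, since CDCP1 replicate 2 was lower than GFP replicate 1 by less than 0.01. Its change was 0.16 (95% interval 0.0061 to 0.31, limma adjusted p = 0.269). The within-array log2 ratio of CDC20 to UBE2C changed by 0.022 (95% interval -0.34 to 0.38, two-sided exact permutation p = 0.9).

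Both probes of BIRC5, the chromosomal passenger protein survivin, were called higher. The brighter probe, ILMN_2349459, had log2 signals of 9.11, 9.11 and 9.28 in the control and 9.68, 9.85 and 9.82 in the CDCP1 cells. The gap between the nearest values of the groups was 0.40, the widest of the 11 probes. Its group means were 9.17 ± 0.096 and 9.78 ± 0.090 (SD, n = 3 each), and it rose by 0.62 log2 units (SE 0.073, 95% interval 0.46 to 0.78, adjusted p by limma = 0.0012), which is 1.53-fold higher. It kept its call with any 1 array left out.

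The dimmer BIRC5 probe, ILMN_1803124, had 7.34, 7.24 and 7.15 in the control and 7.55, 7.62 and 7.66 in the CDCP1 cells, again without overlap. It rose by 0.37 log2 units (SE 0.069, 95% interval 0.22 to 0.52, adjusted p by limma = 0.011), which is 1.29-fold higher. This probe lay closest to the background limit, where differences can be compressed, and whether they were was not tested. After normexp background correction with an offset of 50 its change was 0.48, and that of ILMN_2349459 was 0.66. The within-array log2 ratio of the brighter to the dimmer probe was higher in the CDCP1 cells by 0.25 (95% interval -0.055 to 0.56, two-sided exact permutation p = 0.1, the smallest possible). The groups of this ratio did not overlap, at 0.21 to 0.31 on the CDCP1 arrays and -0.15 to 0.20 on the GFP arrays, and GFP replicate 3 came within 0.01 of the lowest CDCP1 array. The call of the dimmer probe was lost without GFP replicate 2 (adjusted p = 0.056), GFP replicate 3 (0.070) or CDCP1 replicate 2 (0.052).

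TOP2A (ILMN_1686097), the decatenating topoisomerase, stood at 11.59, 11.57 and 11.51 in the control and at 11.93, 11.77 and 11.87 in the CDCP1 cells. The groups were separate by 0.19, and the SDs were small, 0.041 in the control and 0.080 in the CDCP1 cells. It rose by 0.30 log2 units (SE 0.065, 95% interval 0.16 to 0.45, adjusted p by limma = 0.022), which is 1.23-fold higher. This was the least firm of the 5 calls: in limma it was lost without GFP replicate 1 (adjusted p = 0.066), 2 (0.082) or 3 (0.118). It was also lost after normexp correction (0.074) and with a block for the replicate number (0.056). The log2 changes were 0.28 to 0.32 in these cases.

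The enzymes of thymidylate supply were TYMS (ILMN_1806040), which makes thymidylate anew, and TK1 (ILMN_1806037), which recovers it. TYMS stood at 10.01, 9.90 and 9.75 on the GFP arrays and at 10.71, 10.40 and 10.31 on the CDCP1 arrays. The groups were separate by 0.30, with CDCP1 replicate 1 well above the other CDCP1 arrays and the widest control spread of the 11 probes (SD 0.13, n = 3). It rose by 0.59 log2 units (SE 0.10, 95% interval 0.36 to 0.82, adjusted p by limma = 0.0087), which is 1.503-fold higher. Without CDCP1 replicate 1 it was 0.47 and still called, and without GFP replicate 3 it was 0.52 with an adjusted p of 0.055.

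TK1 stood at 10.63, 10.48 and 10.57 on the GFP arrays and at 10.72, 10.88 and 10.85 on the CDCP1 arrays. The groups did not overlap, but the nearest values were 0.090 apart. The fitted change was 0.26 (SE 0.070, 95% interval 0.11 to 0.41, adjusted p by limma = 0.058), a ratio of 1.20, just short of the threshold. It passed without CDCP1 replicate 1 (log2 change 0.31, adjusted p = 0.018), after cyclic loess (0.27, adjusted p = 0.038) and with array weights (0.29, adjusted p = 0.014). In these fits 2132, 1663 and 2613 of all tested probes were called, against 1656 in the main fit. The within-array log2 ratio of TYMS to TK1 was higher in the CDCP1 cells by 0.33 (95% interval -0.18 to 0.84, two-sided exact permutation p = 0.1, the smallest possible). Its CDCP1 values were uneven, at 0.66, 0.19 and 0.13, so the size of that difference rested on CDCP1 replicate 1.

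**Figure D2:**
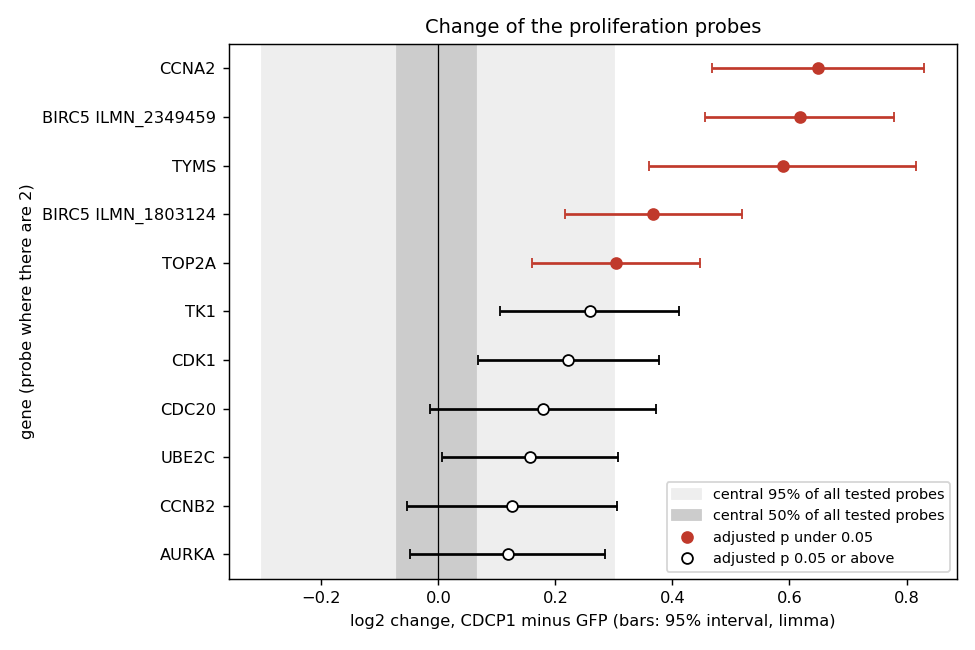
Fitted log2 change, CDCP1 minus GFP, of each probe with its 95% interval from limma (filled red: adjusted p under 0.05), over shaded bands for the central 50% and 95% of all 31456 tested probes (95% band from -0.30 to 0.30). The 5 called probes lie at 0.30 or above, and the other 6 lie between 0.12 and 0.26.

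The size of the increase varied among the members. In 7 of the 11 probes all CDCP1 values lay above all GFP values, a pattern seen in 11% of all tested probes and in 16.9% of the brightest band. A called increase of at least 1.5-fold was reached by 3 members (CCNA2, BIRC5 through ILMN_2349459, and TYMS), against 0.35% of all tested probes. The fold limit was set after seeing the data, and TYMS lay at it. The count was 2 without GFP replicate 3 or CDCP1 replicate 1 (TYMS missing) and without CDCP1 replicate 2 (BIRC5 missing), against 0.331%, 0.324% and 0.292% of all tested probes. By role, 1 of 4 probes for cyclins and kinases, 0 of 2 for mitotic exit, 3 of 3 for chromosome segregation and 1 of 2 for thymidylate supply were called higher, where 2.62% of all tested probes were. The 3 for chromosome segregation stand for 2 genes, since 2 of them belong to BIRC5. The roles were assigned for this report, and another grouping would give other counts. AURKA, which builds the spindle and was not called, was counted with the cyclins and kinases. The 4 probes whose groups overlapped were those of CCNB2, AURKA, CDC20 and UBE2C. Whether these 4 changed less than the rest as a class was not tested, and the intervals of their changes reached from 0.28 to 0.37 at the upper end.

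**Figure D3:**
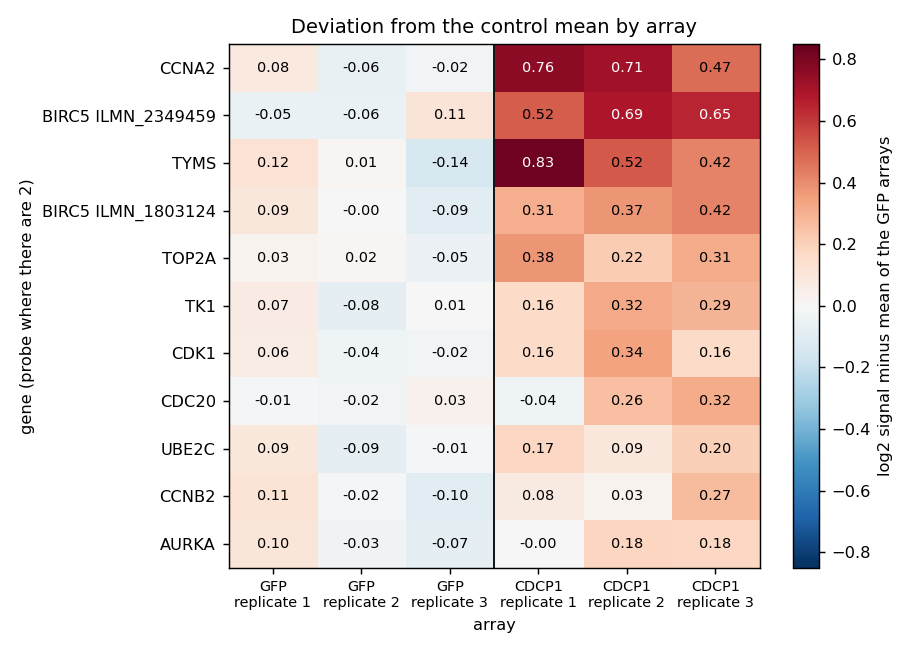
Log2 signal of each probe on each array minus the mean of the 3 GFP arrays, ordered by the fitted change, with red for higher and blue for lower and the value printed in each cell. The CDCP1 columns are red for CCNA2, BIRC5 and TYMS, and CDCP1 replicate 1 is near 0 for AURKA (-0.0049), CDC20 (-0.037) and CCNB2 (0.076). For CCNB2, CDCP1 replicate 2 is nearer to 0 still (0.029).

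The CDCP1 arrays differed in which members were high. CDCP1 replicate 3 lay above every control for all 11 probes, CDCP1 replicate 2 for 9 (all except CCNB2 and UBE2C) and CDCP1 replicate 1 for 8 (all except CCNB2, AURKA and CDC20). CDCP1 replicate 1 was the highest of its group for 3 probes, those of CCNA2, TOP2A and TYMS, and the lowest for 6, those of CDK1, AURKA, CDC20, TK1 and both for BIRC5. The median deviation of the 11 probes from the control mean was 0.17, 0.32 and 0.31 on CDCP1 replicates 1, 2 and 3. Among the controls, GFP replicate 1 was the highest for 9 of the 11 probes, with a median deviation of 0.082, against -0.031 and -0.021 for the other 2.

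**Figure D4:**
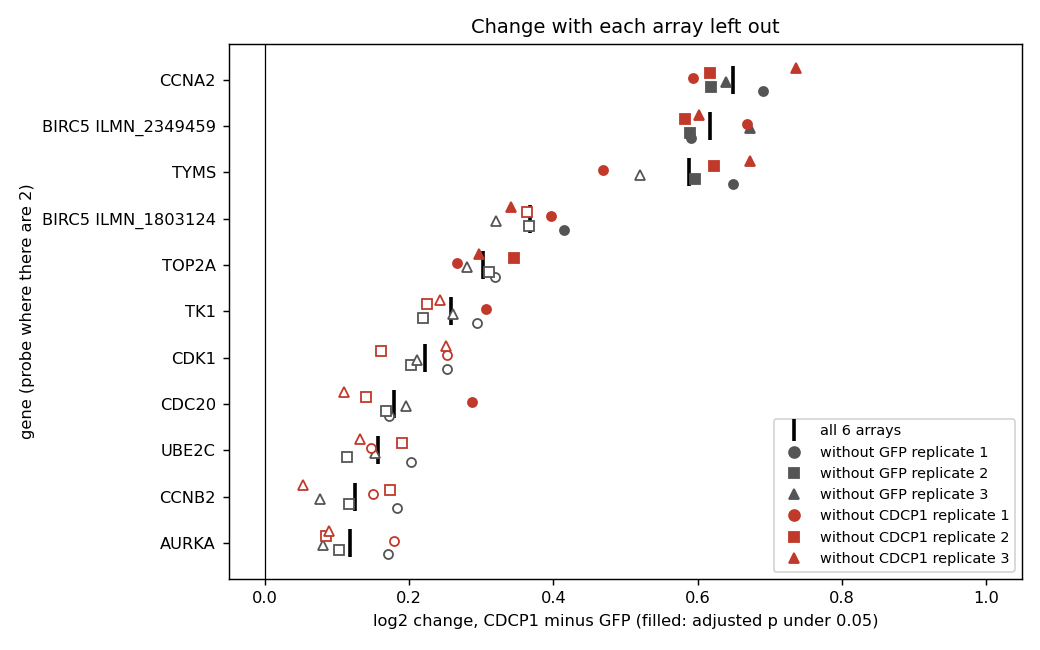
Fitted log2 change of each probe with all 6 arrays (black bar) and with each array left out in turn (shape for the replicate, colour for the group, filled where the adjusted p is under 0.05). CCNA2 and BIRC5 through ILMN_2349459 stay filled throughout, while TOP2A is open without any of the 3 GFP arrays and CDC20 is filled only without CDCP1 replicate 1.

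The count of members called varied with single arrays, as did the count over all tested probes. It was 7 without CDCP1 replicate 1, with all 5 of the original calls plus CDC20 and TK1, and 5 without CDCP1 replicate 3. It was 4 without GFP replicate 1 or CDCP1 replicate 2, 3 without GFP replicate 2 and 2 without GFP replicate 3. The share of all tested probes called higher was 3.49% and 3.03% without CDCP1 replicates 1 and 3, 1.27% without GFP replicate 1, 1.15% without GFP replicate 2 or CDCP1 replicate 2 and 0.976% without GFP replicate 3. The swing from 7 to 2 thus went with that of the whole table and is not a result about the members. The 2 that remained in every case were CCNA2 and BIRC5 through ILMN_2349459. All 11 log2 changes stayed above 0 in each of the 6 fits.

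Among tested probes outside the member list, the one whose 6 values, centred on the control mean, lay nearest to the mean of the members was ILMN_1810915, at a root mean square distance of 0.020 on the log2 scale. The mean of the members was 0.30, 0.34 and 0.34 on CDCP1 replicates 1 to 3, and this probe had 0.26, 0.35 and 0.32. The next was ILMN_1701455, at a distance of 0.023. Both were chosen for this likeness, so it carries no test, and their genes were not identified here.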

How the data were processed

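Total RNA from 3 control (GFP) and 3 CDCP1 samples was labelled as biotinylated cRNA and, per the submitters' processing notes, handled in GenomeStudio (version not stated there). The deposited values are log2 probe signals, already normalized between arrays by the authors. The normalization method was not stated. Array medians differed by at most 0.000523, so a shift of most transcripts in one direction cannot be seen. The 2 deposited tables held the same values for all 47231 probes. The scale was read as log2 from its range, 6.45 to 14.35.

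No detection p-values were used. Background was taken from the mode of all values (6.62) and the spread below it (SD 0.0408), with a limit 1.645 SDs above the mode, and probes above it on at least 3 arrays were tested. CDCP1 minus GFP was fitted in limma 3.58.1 under R 4.3.3 (lmFit, then eBayes), two-sided, with Benjamini-Hochberg adjustment over 31456 probes and a threshold of 0.05. The script was tested on simulated data. Having 3 arrays per group limits the precision.

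The members and lists were chosen with earlier results of these data known. The naming rule took all 11 member probes, the largest calls of 3 further lists of cell cycle genes with fixed partners, CDCP1, and the 5 probes nearest to the members' mean profile, of which 2 are named. The further lists, the cell markers and CDCP1 were not analysed here, since their probes were not paired with genes. Alternatives covered the filter, normalization, background, variance model, array weights, replicate block, threshold and each array left out.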

Additional observations from a re-analysis of the deposited data

How the results depend on the processing

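All 11 member probes kept a log2 change above 0 under all 17 alternatives (187 values, 0 of them reversed). Several alternatives leave the log2 change as it was by construction, so their values could not reverse. They are the 2 filter settings, trend and robust variances, the replicate block, the 0.01 threshold and the fold limit. In 14 of the 187 values a call was lost (TOP2A 8, BIRC5 through ILMN_1803124 5, TYMS 1), and in 5 a call was gained (TK1 3, CDK1 1, CDC20 1). The count of members called higher was 5 without a filter, with the stricter filter, after quantile scaling and with trend and robust variances, 6 after cyclic loess, 4 after normexp and 7 with array weights. It was 3 at an adjusted p under 0.01 and 3 with a 1.5-fold limit, as fewer probes meet a stricter rule. It ran from 2 to 7 with 1 array left out, and the count called lower was 0 to 0 in limma (0 also at an unadjusted p under 0.05). With CDCP1 replicate 1 and GFP replicate 2 both left out, a setting chosen after seeing the data like the 1.5-fold limit, it was 4. Over all 31456 tested probes 1656 were called in either direction, 2613 with array weights and 1085 with the replicate block (the cause was not tested). The total was 1663 after cyclic loess, 1641 after quantile scaling, 1575 with trend and robust variances and 1288 after normexp. Without a filter 1340 of 47231 probes were called, and with the stricter filter 1595 of 22881. It was 556 at the 0.01 threshold, 199 with the fold limit and 613 to 2132 with 1 array left out. The member counts with array weights, normexp and the replicate block thus moved with the whole table and are not results about the members. The experiment numbers were not taken to pair the arrays: deviations of same-numbered arrays correlated at -0.27, -0.30 and 0.16 across probes, and only the arrays numbered 3 correlated best with each other. CDCP1 replicate 1 did so with GFP replicate 2 (0.38) and CDCP1 replicate 2 with GFP replicate 1 (0.29). The deviations within a group of 3 sum to 0, so these correlations constrain each other and cannot exclude a pairing. The replicate block left 4 members called, without TOP2A (adjusted p = 0.056). Re-scaling arrays that were already normalized tests little, and the 3 further gene lists, 1 probe per gene and the CDCP1 transcript were not run. BIRC5 through ILMN_1803124 lay closest to the background limit, and its log2 change rose from 0.37 to 0.48 under normexp. Subtracting background enlarges log2 differences of dim probes in any case, so the effect of background on this probe was not tested.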
